A study of Mus musculus with 23 samples.

Results

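The lipid handling set examined here consisted of 9 genes, taken by symbol from a table of 33280 genes: Apoe, Lpl, Cd36, Abca1, Abcg1, Plin2, Lrp1, Nr1h3 and Pltp. All 9 symbols were found, each in 1 row. The rule used no expression value, but the genes were chosen with earlier results of these data known. RNA was sequenced from 23 libraries of macrophages sorted from coronal brain slices without choroid plexus, 1 day after a thromboembolic stroke in the middle cerebral artery. Every library came from mice of the genotype Ccr2CreERT2/+ R26tdT/tdT, in which tamoxifen lets cells that express Ccr2 switch on tdTomato (tdT) for good. All animals had tamoxifen at 2 mg per day, starting on the last of 7 days of gavage, and the stroke followed 8 weeks after that gavage.

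The 5 groups were MG CTL (microglia after vehicle, n = 5), MG BLZ945 (microglia after BLZ945 at 200 mg/kg, n = 5), unmarked sdCAMs after vehicle (tdT− CTL, n = 5), unmarked sdCAMs after BLZ945 (tdT− BLZ945, n = 5) and marked sdCAMs after BLZ945 (tdT+ BLZ945, n = 3). BLZ945 inhibits the CSF-1 receptor and depletes brain macrophages, so the BLZ945 groups held cells that had repopulated the brain. MG were sorted as CD45int CD11b+ CD206-, and subdural CNS-associated macrophages (sdCAMs, which line the leptomeninges and the vessels that enter the brain) as CD206int-high cells without or with tdT. The study's methods add that cells with Ly6C, Ly6G or CD11c were gated out of the sdCAMs. Libraries are named by their labels F1 to F3 (female) and M1 and M2 (male). Each CTL library came from 1 animal and each BLZ945 library from 2 animals, apart from F2, which came from 1 animal, so pooling and treatment went together. The same label within a treatment means the same animal or pool, whereas between treatments it means different animals, and 1 animal number stood in the labels of both the F2 and the M1 libraries of BLZ945. The tdT mark rests on Ccr2 expression around the time of tamoxifen, so tdT− cells are those not marked then. The labels gave no ages, and no library without stroke was analysed here.

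Macrophages take up lipoproteins and fatty acids, store the surplus as esters in lipid droplets and return cholesterol to carriers outside the cell. Apolipoprotein E is the main lipid carrier of the brain and is known to rise in microglia in disease and around damaged tissue. The nuclear receptor LXR, which Nr1h3 encodes in its alpha form, senses oxysterols and turns on Apoe, Abca1, Abcg1, Pltp and Lpl, while receptors of the PPAR group are known to drive Cd36 and Plin2.

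Levels are given in CPM, the counts of a gene scaled to a common library total, with the totals corrected by TMM factors. Library totals lay between 9433960 and 13276081 counts. At this depth 3 counts, the lowest level told from 0 here, equalled 0.230 to 0.334 CPM, and such a floor covers counting error only. The labelled populations carried their markers. The summed level of 5 microglial markers was 14450 to 22270 CPM in MG and 1094 to 2246 CPM in sdCAMs. The summed level of 6 sdCAM markers, among them the sort marker Mrc1 (CD206), was 12700 to 17380 CPM in sdCAMs and 12.7 to 52.3 CPM in MG. Within the sdCAMs, 2 libraries of tdT− BLZ945 stood out in 6 monocyte markers, with a sum of 234 CPM in F1 and 99.6 CPM in M1, and F3 of tdT+ BLZ945 stood out in 3 choroid plexus markers with 1700 CPM. F3 of MG BLZ945 reached 542 CPM in the choroid plexus markers. Results that move without these 4 libraries are given with their values.

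RefSeq held promoters for 7 of the 9 genes on the mouse build GRCm38.p6: Apoe, Cd36, Abca1, Plin2, Lrp1, Nr1h3 and Pltp. The 250 bases before each start were searched on both strands for the nuclear receptor core site AGGTCA and for 2 such sites in a row, 1 or 4 bases apart. LXR with RXR binds the spacing of 4 bases and PPAR with RXR the spacing of 1 base. Only the Cd36 and Plin2 windows held the core site, which 14% of 32851 promoters of the same length also held. These 2 windows also held the repeat with 1 base between when up to 2 mismatches were allowed, which 3.24% of promoters held. None of the 7 genes held the repeat 4 bases apart, exact or with up to 2 mismatches, which 2.57% of promoters held in the looser form. Both windows are printed 5′ to 3′ along the gene, because they are the ones with a match among genes that differed between the populations. Capitals mark the core site and the repeat as they read on this strand (a core site on the other strand reads TGACCT). In Plin2 (chr4:86670060-86670309, minus strand) the capitals run from 225 to 213 bases before the start, with the core site as the last part of the repeat. In Cd36 (chr5:17835897-17836146, minus strand) the core site lies 228 to 223 bases and the repeat 63 to 51 bases before the start. A match is a string of letters and was not tested as a binding site. Repeats with more than 2 mismatches were not sought, so a missing match does not show that a gene lacks a site.
Plin2: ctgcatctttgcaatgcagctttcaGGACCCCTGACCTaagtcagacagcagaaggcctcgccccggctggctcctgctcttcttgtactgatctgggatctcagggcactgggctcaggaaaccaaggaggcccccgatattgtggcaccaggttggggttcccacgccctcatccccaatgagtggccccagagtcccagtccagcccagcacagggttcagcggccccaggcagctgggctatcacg
Cd36: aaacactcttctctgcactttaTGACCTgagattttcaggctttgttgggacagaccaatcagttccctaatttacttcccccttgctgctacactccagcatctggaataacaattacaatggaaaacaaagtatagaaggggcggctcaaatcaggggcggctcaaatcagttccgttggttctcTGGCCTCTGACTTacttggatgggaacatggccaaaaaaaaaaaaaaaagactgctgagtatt

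The first question was how lipid handling differed between the 2 macrophage populations of the same brains. tdT− sdCAMs held far more Apoe and Pltp than MG, more Cd36 and Plin2, and less Lpl, Abcg1 and Lrp1, in CTL as well as in BLZ945 animals. The tdT+ sdCAMs differed from MG in the same genes apart from Plin2. Of the 9 genes, 8 passed the test between tdT− and MG in CTL animals, where 25.6% of all 12697 genes tested passed. All 9 passed in BLZ945 animals, where 32.4% of all genes passed. Between tdT+ sdCAMs and MG of BLZ945 animals, 6 of the 9 passed, against 25.2% of 13790 genes, and Plin2, Abca1 and Nr1h3 did not. The tests are edgeR quasi-likelihood tests with Benjamini-Hochberg adjustment over all genes tested, with a threshold of 0.05 on the adjusted p. The 3 comparisons share libraries, so they are not independent of each other. As the 9 genes were chosen with earlier results of these data known, their share beside that of all genes is a description only. Over the 9 genes the median log2 fold change was 1.39 in CTL animals, 1.39 in BLZ945 animals and 0.776 for tdT+ cells, beside −0.00702, −0.0182 and −0.0149 over all genes. Samples of 1 sorted population do not tell fewer cells of a type from less RNA per cell.

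**Figure D1:**
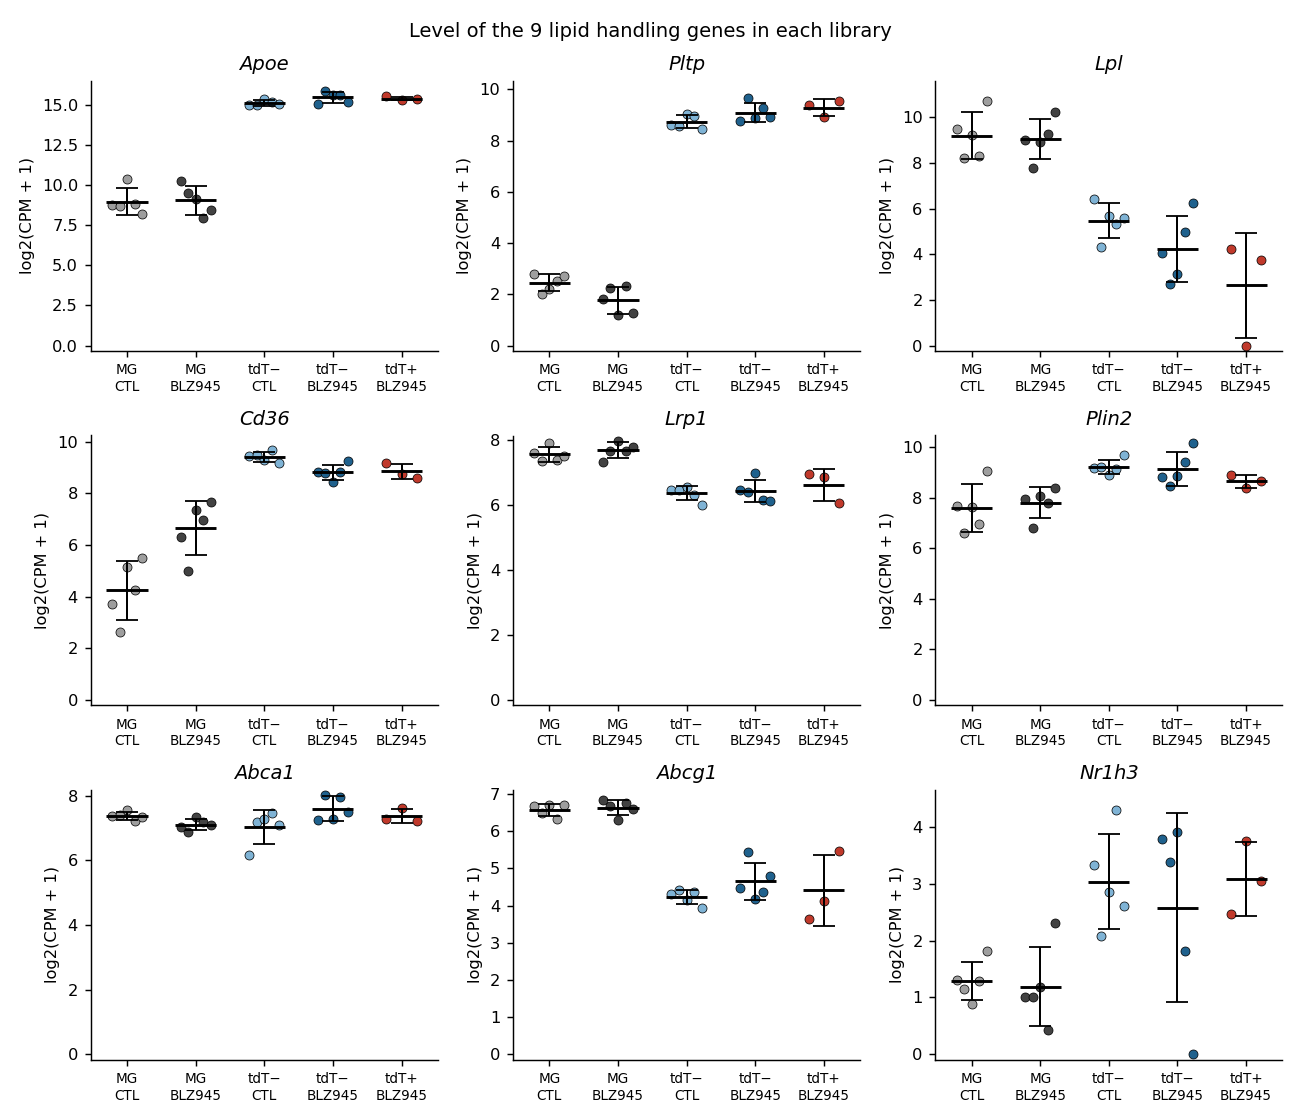
Level of each of the 9 genes on the log2(CPM + 1) scale (vertical axis) in the 5 groups (horizontal axis). Points are libraries, thick bars are means and thin bars are SDs; axes differ between genes. Apoe and Pltp of every sdCAM library lie above every MG library, Lpl, Lrp1 and Abcg1 lie below, and 1 tdT+ library of Lpl and 1 tdT− BLZ945 library of Nr1h3 are at 0 counts.

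Apoe encodes apolipoprotein E, the protein part of the particles that carry cholesterol between brain cells. In MG CTL, Apoe stood at 445 CPM in F1, 411 in F2, 1340 in F3, 462 in M1 and 291 in M2. In MG BLZ945, the Apoe levels were 1239 CPM in F1, 753 in F2, 558 in F3, 248 in M1 and 348 in M2. Microglia thus varied about as much within a treatment as between treatments, and F3 of CTL and F1 of BLZ945 were the highest. In tdT− CTL, Apoe reached 33680 CPM in F1, 32680 in F2, 43270 in F3, 38060 in M1 and 34460 in M2. In tdT− BLZ945, it reached 34980 CPM in F1, 60820 in F2, 51570 in F3, 50800 in M1 and 38660 in M2. The 3 tdT+ BLZ945 libraries held 48430 CPM in F2, 41430 in F3 and 42970 in M2. The lowest sdCAM library lay above the highest MG library by more than an order of magnitude, and the 3 sdCAM groups overlapped.

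Expressed as a share of all counts, Apoe took 3.27% to 5.51% of an sdCAM library and 0.0262% to 0.140% of an MG library. The log2 fold change of tdT− over MG was 5.96 ± 0.46 (SE) in CTL animals, a 62.1-fold difference (adjusted p = 1.446e-09, edgeR). It was 6.25 ± 0.47 in BLZ945 animals, 76.0-fold (adjusted p = 8.954e-10, edgeR). For tdT+ over MG it was 6.14 ± 0.45, 70.4-fold (adjusted p = 2.318e-10, edgeR). Order of group means ran from tdT− BLZ945 (47370 ± 10480 CPM, SD, n = 5) through tdT+ BLZ945 (44280 ± 3681, SD, n = 3) and tdT− CTL (36430 ± 4327, SD, n = 5) to MG BLZ945 (629 ± 393, SD, n = 5) and MG CTL (590 ± 425, SD, n = 5). Neighbouring groups overlapped, apart from the step between sdCAMs and MG. The mean Apoe level of MG was 1.62% of that of tdT− sdCAMs in CTL and 1.33% in BLZ945 animals, whereas the 6 sdCAM markers stood in MG at 0.0521% to 0.435% of their sdCAM level in CTL and at 0.0137% to 0.413% in BLZ945 animals.

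Pltp encodes phospholipid transfer protein, which moves phospholipids between lipoprotein particles. In MG CTL, Pltp stood at 5.97 CPM in F1, 3.06 in F2, 3.59 in F3, 4.70 in M1 and 5.52 in M2. In MG BLZ945, the values were 2.51 CPM in F1, 3.77 in F2, 1.28 in F3, 3.99 in M1 and 1.44 in M2. These levels were above the floor of 3 counts in every MG library, and the treatments overlapped. In tdT− CTL, Pltp reached 390.2 CPM in F1, 381 in F2, 532 in F3, 501 in M1 and 352 in M2. In tdT− BLZ945, the levels were 432 CPM in F1, 802 in F2, 467 in F3, 610.1 in M1 and 482 in M2. In tdT+ BLZ945, they were 669 CPM in F2, 486 in F3 and 746 in M2. Every sdCAM library lay far above every MG library, and Pltp had the widest distance between populations of the 9 genes. The log2 fold change of tdT− over MG was 6.57 ± 0.30 (SE) in CTL animals (94.7-fold, adjusted p = 4.295e-13, edgeR) and 7.76 ± 0.32 in BLZ945 animals (216-fold, adjusted p = 9.706e-14, edgeR). For tdT+ over MG it was 7.93 ± 0.33 (243-fold, adjusted p = 1.457e-14, edgeR).

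Lpl encodes lipoprotein lipase, which frees fatty acids from the triglycerides of lipoproteins. In MG CTL, Lpl stood at 714 CPM in F1, 301 in F2, 601 in F3, 314 in M1 and 1707 in M2. In MG BLZ945, the Lpl levels were 518 CPM in F1, 220.4 in F2, 491 in F3, 626 in M1 and 1203 in M2. M2 was the highest and F2 the lowest MG library in each treatment, and the treatments overlapped. In tdT− CTL, Lpl stood at 84.8 CPM in F1, 18.8 in F2, 49.97 in F3, 38.8 in M1 and 47.7 in M2. In tdT− BLZ945, it stood at 15.8 CPM in F1, 5.41 in F2, 7.82 in F3, 30.4 in M1 and 75.2 in M2. In tdT+ BLZ945, the levels were 17.5 CPM in F2, 0 counts in F3 and 12.3 CPM in M2. Every sdCAM library lay below the lowest MG library. Lpl was 15.1-fold lower in tdT− than in MG of CTL animals (log2 fold change −3.91 ± 0.66, SE, adjusted p = 9.757e-05, edgeR) and 22.6-fold lower in BLZ945 animals (−4.50 ± 0.68, adjusted p = 2.564e-05, edgeR). Without M2 of MG CTL the first value was 10.02-fold, and without M2 of tdT− BLZ945 the second was 40.8-fold. Against tdT+ cells the fitted log2 fold change was −5.94 ± 1.06 (adjusted p = 0.0001814, edgeR), and −6.63 ± 1.33 without F2 of tdT+. The mean Lpl level of tdT− sdCAMs was 6.60% of the MG level in CTL and 4.40% in BLZ945 animals. The 5 microglial markers stood in tdT− sdCAMs at 1.87% to 11.2% of their MG level in CTL and at 0.768% to 26.4% in BLZ945 animals, a range that holds the Lpl shares.

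Cd36 encodes a scavenger receptor that takes up long-chain fatty acids and oxidised lipoproteins. In MG CTL, Cd36 stood at 12.1 CPM in F1, 5.25 in F2, 34.1 in F3, 18.4 in M1 and 44.7 in M2. In MG BLZ945, the Cd36 levels were 79.0 CPM in F1, 31.2 in F2, 164 in F3, 126 in M1 and 202 in M2. Each BLZ945 library apart from F2 lay above all CTL libraries. In tdT− CTL, Cd36 reached 697 CPM in F1, 724 in F2, 630.3 in F3, 821 in M1 and 583 in M2. In tdT− BLZ945, it reached 456 CPM in F1, 439.7 in F2, 343 in F3, 459 in M1 and 605 in M2. In tdT+ BLZ945, the levels were 586 CPM in F2, 429 in F3 and 391 in M2. The sdCAM libraries lay above all MG libraries, and M2 was the only tdT− BLZ945 library inside the CTL range. tdT− cells exceeded MG by 30.3-fold in CTL animals (log2 fold change 4.92 ± 0.49, SE, adjusted p = 8.25e-08, edgeR) and by 3.85-fold in BLZ945 animals (1.95 ± 0.43, adjusted p = 0.001437, edgeR). tdT+ cells exceeded MG by 3.89-fold (1.96 ± 0.45, adjusted p = 0.002353, edgeR).

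**Figure D2:**
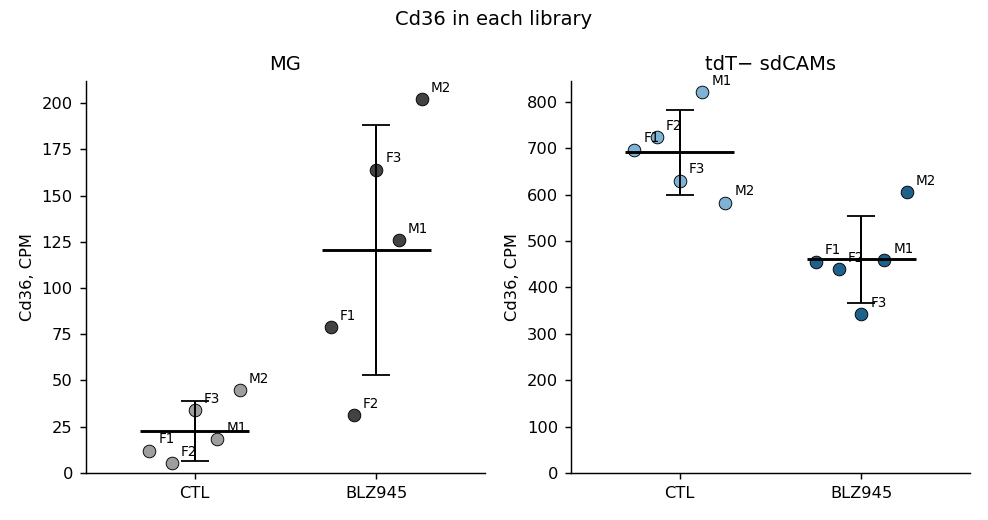
Cd36 in CPM (vertical axis) in CTL and BLZ945 libraries of MG (left) and of tdT− sdCAMs (right); points are libraries with their labels, thick bars are means and thin bars are SDs. The scales of the panels differ: MG BLZ945 libraries range from 31.2 to 202 CPM and MG CTL libraries from 5.25 to 44.7 CPM, while tdT− libraries range from 343 to 605 CPM after BLZ945 and from 583 to 821 CPM in CTL.

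Lrp1 encodes a large endocytic receptor that binds apolipoprotein E particles. In MG CTL, Lrp1 stood at 195 CPM in F1, 164 in F2, 241 in F3, 166 in M1 and 181 in M2. After BLZ945, the Lrp1 levels of MG were 158 CPM in F1, 204 in F2, 252 in F3, 204 in M1 and 220.0 in M2. The sdCAM libraries ranged from 63.7 to 92.9 CPM in tdT− CTL, from 69.1 to 125 CPM in tdT− BLZ945 and from 65.6 to 123 CPM in tdT+ BLZ945. All sdCAM libraries lay below all MG libraries. The gene was 2.30-fold lower in tdT− than in MG of CTL animals (log2 fold change −1.20 ± 0.17, SE, adjusted p = 8.501e-06, edgeR) and 2.36-fold lower in BLZ945 animals (−1.24 ± 0.17, adjusted p = 5.524e-06, edgeR). tdT+ cells were 2.04-fold lower than MG (−1.03 ± 0.22, adjusted p = 0.001053, edgeR). The receptor and its ligand differed in opposite directions between the populations. The mean Lrp1 level of tdT− sdCAMs was 43.3% of the MG level in CTL and 42.0% in BLZ945 animals. Both were above the shares of all 5 microglial markers.

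The efflux transporters Abca1 and Abcg1, which load cholesterol onto apolipoproteins and onto formed particles, differed from MG to sdCAMs in unlike ways. In MG CTL, Abcg1 stood at 100.2 CPM in F1, 88.8 in F2, 102 in F3, 79.6 in M1 and 103 in M2. After BLZ945, the Abcg1 levels of MG were 113 CPM in F1, 102 in F2, 78.1 in F3, 107 in M1 and 94.98 in M2. In the sdCAMs they ranged from 14.3 to 20.5 CPM in tdT− CTL, from 16.99 to 42.1 CPM in tdT− BLZ945 and from 11.5 to 43.3 CPM in tdT+ BLZ945. No library of sdCAMs reached the lowest MG library. Abcg1 was 5.25-fold lower in tdT− than in MG of CTL animals (log2 fold change −2.39 ± 0.21, SE, adjusted p = 7.926e-09, edgeR), 3.87-fold lower in BLZ945 animals (−1.95 ± 0.20, adjusted p = 1.304e-07, edgeR) and 4.17-fold lower in tdT+ cells (−2.06 ± 0.34, adjusted p = 5.883e-05, edgeR). Without M2 of tdT+ the last value was 7.13-fold. The mean Abcg1 level of tdT− sdCAMs was 18.95% of the MG level in CTL animals, above the range of the microglial markers. In BLZ945 animals it was 25.6%, inside that range.

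The group means of Abca1 lay between 136 and 199 CPM, while single libraries ranged from 70.1 to 259 CPM. In MG CTL, Abca1 stood at 165 CPM in F1, 168 in F2, 188 in F3, 147 in M1 and 159 in M2, and in MG BLZ945 at 129, 116, 161, 143 and 137 CPM in the same order. In tdT− CTL, the levels were 70.1 CPM in F1, 143 in F2, 153 in F3, 177 in M1 and 136 in M2. In tdT− BLZ945, they were 152 CPM in F1, 259 in F2, 153 in F3, 249 in M1 and 179 in M2, and in tdT+ BLZ945 they were 155, 196 and 147 CPM in F2, F3 and M2. All 5 groups overlapped with their neighbours, and their order changed with the scaling of the libraries. In CTL animals the difference between tdT− and MG was not called (136 ± 39.9 against 165 ± 15.2 CPM, SD, n = 5 each, adjusted p = 0.3493, edgeR, with a 95% interval of the log2 fold change from −0.68 to 0.13). In BLZ945 animals tdT− cells exceeded MG by 1.46-fold (log2 fold change 0.55 ± 0.19, SE, adjusted p = 0.03523, edgeR). With the animal or pool as a block this call was lost (adjusted p = 0.06834, edgeR), as it was with the filter of the study (0.0523) and without a filter on low counts (0.0521). Leaving out 1 library at a time lost it in 6 of 10 fits, namely without F1, F2, M1 or M2 of MG BLZ945 or F2 or M1 of tdT− BLZ945 (adjusted p = 0.05593 to 0.1108, edgeR). The tdT+ cells did not differ from MG past the threshold (adjusted p = 0.3877, edgeR).

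Nr1h3, the gene of LXR alpha, was found at a few CPM. In MG CTL, Nr1h3 stood at 1.47 CPM in F1, 1.23 in F2, 0.855 in F3, 1.45 in M1 and 2.53 in M2, and MG BLZ945 libraries ranged from 0.355 to 3.98 CPM. In tdT− CTL, the levels were 9.01 CPM in F1, 3.24 in F2, 6.22 in F3, 18.7 in M1 and 5.10 in M2. In tdT− BLZ945, they were 12.8 CPM in F1, 9.41 in F2, 13.9 in F3, 2.53 in M1 and 0 counts in M2, and in tdT+ BLZ945 they were 4.50, 12.4 and 7.22 CPM in F2, F3 and M2. The CTL populations did not overlap, whereas in BLZ945 animals M1 of tdT− lay inside the range of MG and M2 below it. The log2 fold change of tdT− over MG was 2.49 ± 0.87 (SE) in CTL animals (adjusted p = 0.039, edgeR) and 2.34 ± 0.87 in BLZ945 animals (adjusted p = 0.04247, edgeR). Both calls were lost with the animal or pool as a block (adjusted p = 0.1272 and 0.1352, edgeR) and without a filter on low counts (0.05044 and 0.05763), and the second also with the filter of the study (0.05487) and with sex as a covariate (0.0527). Each was lost in 7 of the 10 fits that left out 1 library. In CTL animals these were the fits without F1, F2, F3 or M1 of MG or F1, F3 or M1 of tdT− (adjusted p = 0.05011 to 0.1264, edgeR), and in BLZ945 animals those without F1, F2, F3 or M1 of MG or F1, F2 or F3 of tdT− (adjusted p = 0.06148 to 0.09776, edgeR). Without M2 of MG BLZ945 the second log2 fold change was 3.08. Against tdT+ cells the difference missed the threshold (2.39 ± 0.92, adjusted p = 0.059, edgeR) and passed it with DESeq2 (adjusted p = 0.02196), in a fit of only the 8 libraries compared (adjusted p = 0.0329, edgeR) and without M2 of MG BLZ945 (3.12 ± 0.98, adjusted p = 0.02551, edgeR).

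Plin2 encodes perilipin 2, which coats lipid droplets. In MG CTL, Plin2 stood at 202 CPM in F1, 95.6 in F2, 198 in F3, 123 in M1 and 534 in M2. After BLZ945, the Plin2 levels of MG were 248 CPM in F1, 111 in F2, 269 in F3, 219 in M1 and 336 in M2. As with Lpl, M2 was the highest and F2 the lowest MG library in each treatment. In tdT− CTL, Plin2 stood at 571 CPM in F1, 584 in F2, 477 in F3, 565 in M1 and 813 in M2. In tdT− BLZ945, it stood at 445 CPM in F1, 355 in F2, 462 in F3, 671 in M1 and 1150 in M2, and in tdT+ BLZ945 at 480.3, 334 and 400.2 CPM in F2, F3 and M2. M2 of MG CTL lay inside the sdCAM range, and the BLZ945 populations of MG and tdT− cells did not overlap. tdT− cells exceeded MG by 2.63-fold in CTL animals (log2 fold change 1.39 ± 0.39, SE, adjusted p = 0.009986, edgeR) and by 2.63-fold in BLZ945 animals (1.39 ± 0.39, adjusted p = 0.008531, edgeR). The tdT+ cells did not differ from MG past the threshold (405 ± 73.1, SD, n = 3, against 237 ± 82.3 CPM, SD, n = 5, adjusted p = 0.1812, edgeR), with a 95% interval of the log2 fold change from −0.08 to 1.63.

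**Figure D3:**
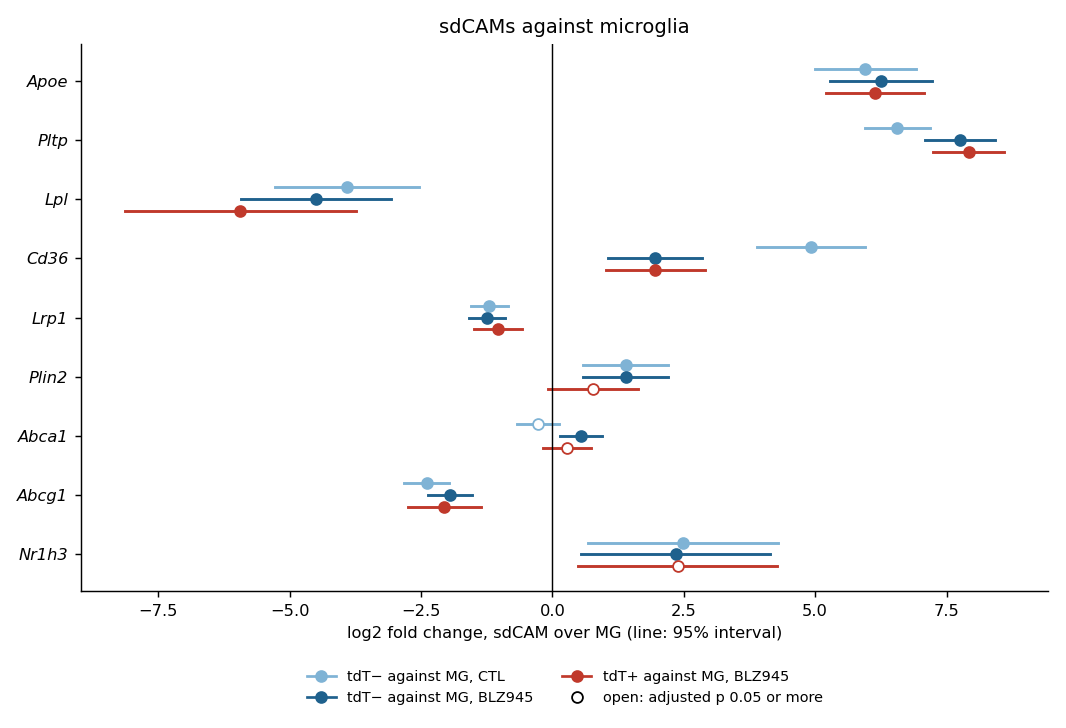
Log2 fold change of sdCAMs over MG (horizontal axis) for the 9 genes (vertical axis) in 3 comparisons; lines are 95% intervals, filled points passed the test at an adjusted p under 0.05 and open points did not. Apoe and Pltp lie near 6 to 8 on the right, Lpl, Lrp1 and Abcg1 lie on the left, and Abca1 lies near 0.

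Divided by the summed exon length of each gene in the GENCODE M21 annotation, Apoe was the highest of the 9 in every group, with 17040 ± 2024 CPM per kb (SD, n = 5) in tdT− CTL and 276 ± 199 CPM per kb (SD, n = 5) in MG CTL. Below Apoe, tdT− CTL cells were led by Cd36 (193 ± 25.5 CPM per kb), Plin2 (171 ± 35.7) and Pltp (168 ± 31.0), while MG CTL were led by Lpl (69.4 ± 55.0 CPM per kb) and Plin2 (65.6 ± 50.1; SD, n = 5 each). The spread of these neighbours overlapped. Nr1h3 was the lowest in MG CTL, at 0.599 ± 0.248 CPM per kb (SD, n = 5), and Abcg1 was the lowest in tdT− CTL, at 2.46 ± 0.336 CPM per kb (SD, n = 5).

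Markers of other cells moved with the population. Summed over 5 mural and fibroblast markers, sdCAM libraries held 15.1 to 60.2 CPM and MG libraries 0.338 to 3.46 CPM, with none of the markers at 0 in all libraries of a group. Summed over 4 neuronal markers, the ranges were 38.2 to 110.5 CPM in sdCAMs and 4.62 to 12.3 CPM in MG. The sum of 5 oligodendrocyte markers was 145.9 to 356 CPM in sdCAMs and 81.2 to 138 CPM in MG, and 1 of the 5 was called higher in tdT− than in MG in either treatment and 2 of the 5 in tdT+. The sum of 5 dendritic cell markers was 31.4 to 780.2 CPM in sdCAMs and 14.2 to 23.5 CPM in MG, with Xcr1 at 0 in all sdCAM libraries. Cd209a carried this sum, with a mean of 441 CPM in tdT− CTL and 0.251 CPM in MG CTL, whereas Itgax went the other way, at 0 counts in all tdT− CTL libraries beside a mean of 11.9 CPM in MG CTL. Of the 4 dendritic cell markers that could be tested between tdT− and MG in CTL animals, 2 were higher and 1 lower. Astrocytes, the main source of apolipoprotein E in the healthy brain, gave a sum over 6 markers of 150.1 to 304 CPM in MG and 60.5 to 266 CPM in sdCAMs. Of the 5 astrocyte markers that could be tested, 3 were higher and 1 lower in tdT− than in MG in either treatment, and of 6 tested 5 were higher and 1 lower in tdT+. The sum of the 6 monocyte markers was 7.18 to 234 CPM in sdCAMs and 3.72 to 17.3 CPM in MG, and 3 of the 5 that could be tested were higher in tdT− than in MG of BLZ945 animals. The part of these cells in the differences was not tested. Without the 4 libraries named above, 8 of the 9 genes passed between tdT− and MG in CTL animals, 7 in BLZ945 animals and 6 between tdT+ and MG. In the same fits 3449 of 13291, 4037 of 13291 and 2929 of 14176 genes passed. Abca1 (adjusted p = 0.05757, edgeR) and Nr1h3 (adjusted p = 0.1012, edgeR) were the calls lost in tdT− BLZ945 cells.

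A wider list of 97 genes of lipid metabolism, the 9 included, was arranged by role. Of its other genes, 74 could be tested between tdT− and MG in CTL animals, of which 29 were higher and 8 lower in sdCAMs (50% called, against 25.6% of all genes). In BLZ945 animals 28 of 74 were higher and 7 lower (47.3%, against 32.4%), and between tdT+ and MG 20 of 77 were higher and 8 lower (36.4%, against 25.2%). Sterol and fatty acid synthesis gave 10 higher and 2 lower genes of 19 tested in CTL animals and 8 higher and 2 lower in BLZ945 animals. Lipid droplets and esterification gave 4 higher genes of 8 in either treatment, Plin2 included. Lipoprotein and scavenger receptors gave 3 higher and 3 lower of 10 in CTL animals and 3 higher and 2 lower in BLZ945 animals, Lrp1 among the lower. Of the 7 genes of fatty acid oxidation, 1 passed in BLZ945 animals. The lists were chosen with earlier results of these data known and were not tested as sets.

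**Figure D4:**
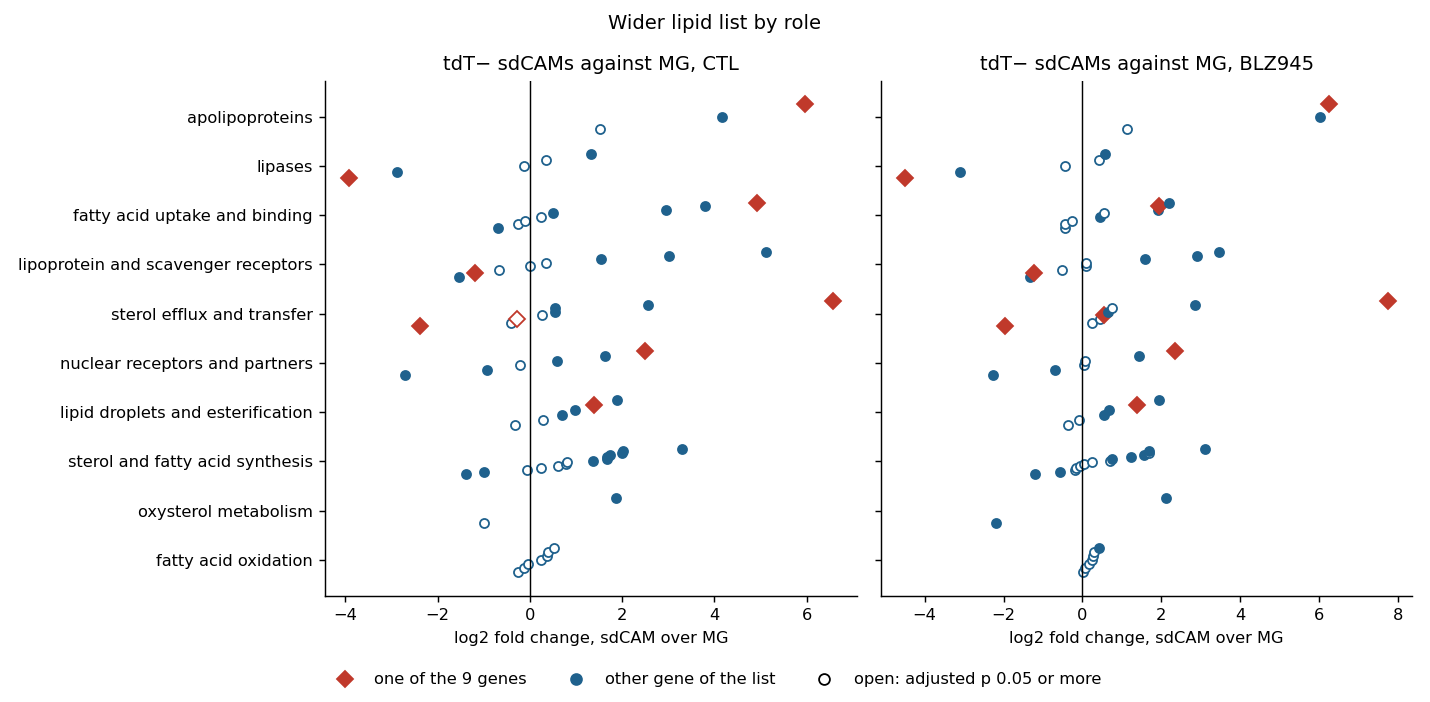
Log2 fold change of tdT− sdCAMs over MG (horizontal axes) in CTL and BLZ945 animals for the wider lipid list by role (vertical axis); red diamonds are the 9 genes, blue circles other genes with an average log2 CPM of at least 3, filled where the adjusted p was under 0.05. The counts that follow cover all tested genes, also those too low to be drawn. Of the 19 genes of sterol and fatty acid synthesis, 10 were called higher and 2 lower in CTL animals. Of the 10 receptors, 3 were called on each side in CTL animals, and 3 higher and 2 lower in BLZ945 animals.

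Among the called genes with an average log2 CPM of at least 3, those with the largest changes in each direction are named. In CTL animals large rises were seen in Apod, an apolipoprotein that binds small lipids (50.1 ± 14.9 CPM in tdT− and 2.79 ± 1.48 in MG, SD, n = 5 each, log2 fold change 4.17 ± 0.48, SE, adjusted p = 6.657e-07, edgeR) and in Fabp5, a fatty acid binding protein (51.9 ± 35.6 and 3.76 ± 2.32 CPM, 3.79 ± 0.49, adjusted p = 3.607e-06, edgeR). The largest falls were in Mgll, which cleaves monoacylglycerol (6.96 ± 3.63 and 51.7 ± 7.98 CPM), in Mylip, a ubiquitin ligase that is an LXR target (41.3 ± 18.1 and 270.6 ± 23.9 CPM), and in Trem2, a lipid-binding receptor of microglia (578 ± 59.9 and 1675 ± 202 CPM). Their log2 fold changes were −2.89, −2.70 and −1.53.

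In BLZ945 animals Apod (log2 fold change 6.04 ± 0.53, SE) led the rises of tdT− over MG, and Sqle, an enzyme of cholesterol synthesis, was also among them (3.10 ± 0.42). The falls were led by Mgll (−3.09 ± 0.54), Mylip (−2.26 ± 0.32) and Ch25h, which makes 25-hydroxycholesterol (−2.19 ± 0.69), and of these named genes Ch25h was the only one whose groups overlapped. Between tdT+ cells and MG the rises were led by Apod (5.97 ± 0.52), Clu, the gene of clusterin (3.05 ± 0.77), and the scavenger receptor gene Stab1 (2.77 ± 0.18). Clu lay between 6.80 and 102 CPM in the 3 tdT+ libraries and overlapped with MG. The highest value was that of F3, the library high in choroid plexus markers, beside 6.80 CPM in F2 and 19.2 CPM in M2. Without F3 of tdT+ the Clu call was lost (log2 fold change 1.33 ± 0.77, adjusted p = 0.2299, edgeR), without F3 of MG BLZ945 the change was 3.96 ± 0.78, and without all 4 libraries named above it was 2.24 ± 0.65 (adjusted p = 0.01874, edgeR). With the animal or pool as a block the Clu change was 2.25 (adjusted p = 0.03753, edgeR). The falls were led by Mgll (−2.94 ± 0.69), Mylip (−2.55 ± 0.38) and Ch25h (−2.40 ± 0.84), the last with an adjusted p of 0.03872 that rose to 0.05222 with the animal or pool as a block (edgeR). The Ch25h call for tdT+ was also lost without F2 or F3 of tdT+ or F1, M1 or M2 of MG (adjusted p = 0.06036 to 0.1387, edgeR) and without the 4 libraries (0.1362), and that for tdT− was lost without the 4 libraries (0.06577). For tdT− the Ch25h change was −2.87 without M2 of tdT− and −2.88 with the block. Without F1 of MG the Apod changes rose to 6.75 for tdT− and 6.69 for tdT+.

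The second question was whether repopulation after BLZ945 left a mark on lipid handling within each population. In MG, Cd36 was the only one of the 9 genes to pass the test, against 0.408% of 11264 genes. It was 5.20-fold higher after BLZ945 (121 ± 67.6 against 22.9 ± 16.2 CPM, SD, n = 5 each, log2 fold change 2.38 ± 0.50, SE, adjusted p = 0.04966, edgeR). The call was lost in 8 of the 10 fits that left out 1 library (adjusted p = 0.05814 to 0.1315, edgeR), all apart from those without M2 of CTL (adjusted p = 0.01698, edgeR) and without F2 of BLZ945 (adjusted p = 0.0157, edgeR). In these fits the log2 fold change lay between 2.11 and 2.78. Without F3 of BLZ945, the MG library high in choroid plexus markers, it was 2.24 ± 0.52 (adjusted p = 0.1021, edgeR), and with DESeq2 on all 10 libraries it was 2.39 (adjusted p = 0.01702). Summed markers of sdCAMs, which hold more Cd36, were 12.7 to 35.6 CPM in MG BLZ945 and 21.3 to 52.3 CPM in MG CTL, and those of endothelial cells, another site of Cd36, were 4.78 to 21.4 CPM and 16.9 to 26.4 CPM. The part of these cells in the Cd36 value was not tested.

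The other 8 genes did not change past the threshold in MG. Apoe was 629 ± 393 CPM after BLZ945 and 590 ± 425 CPM in CTL (SD, n = 5 each, log2 fold change 0.08 ± 0.41, SE, adjusted p = 0.9609, edgeR). The 95% interval ran from −0.78 to 0.94, so changes within that range were not excluded. Abca1 was 137 ± 16.7 and 165 ± 15.2 CPM (SD, n = 5 each, −0.28 ± 0.11, adjusted p = 0.2813, edgeR). The log2 fold changes of Lpl, Lrp1, Abcg1, Pltp, Nr1h3 and Plin2 lay between −0.83 (Pltp) and 0.12 (Lrp1). Of the 68 other lipid genes tested in MG, 0 passed with edgeR and 13 had an unadjusted p under 0.05, as had 1492 of all 11264 genes. The whole list, Cd36 included, held 3 calls with DESeq2 (268 of 16982 genes), 3 with edgeR without a filter (193 of 21323) and 2 with edgeR and a block on replicate label (89 of 11264).

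In tdT− sdCAMs none of the 9 genes passed between BLZ945 and CTL, nor did any of the 13076 genes tested (0% with edgeR). At an unadjusted p under 0.05 stood 3 of the 9 genes, 6 of the 75 other lipid genes and 697 of all genes. DESeq2 called none of the 9, 2 of the whole lipid list and 62 of all genes. Apoe was 47370 ± 10480 CPM after BLZ945 and 36430 ± 4327 CPM in CTL (SD, n = 5 each, log2 fold change 0.39 ± 0.14, SE, adjusted p = 0.7476, edgeR), with 3 BLZ945 libraries above all CTL libraries and 2 inside their range. Cd36 was 461 ± 93.7 and 691 ± 91.4 CPM (SD, n = 5 each, −0.57 ± 0.16, adjusted p = 0.5406, edgeR), the opposite sign to that in MG. Abca1 was 199 ± 52.1 and 136 ± 39.9 CPM (SD, n = 5 each, 0.56 ± 0.23, adjusted p = 0.8224, edgeR). The log2 fold changes of Lpl, Lrp1, Abcg1, Pltp, Nr1h3 and Plin2 lay between −0.81 (Lpl) and 0.50 (Abcg1). The sum of the 5 dendritic cell markers, carried by Cd209a, was 31.4 to 164 CPM after BLZ945 and 219 to 780.2 CPM in CTL, and its part in these values was not tested.

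The test of whether the effect of BLZ945 differed between tdT− sdCAMs and MG called none of the 9 genes and 5 of 12697 genes (0.0394%, edgeR). For Cd36 the effects differed by −2.97 ± 0.61 on the log2 scale (SE, unadjusted p = 7.144e-05, adjusted p = 0.09876, edgeR). The direction held in every fit that left out 1 library, in which the difference lay between −3.37 and −2.71. DESeq2 put Cd36 past the threshold (adjusted p = 0.0005865), and so did edgeR without a filter on low counts (adjusted p = 0.0379), whereas the fit with the animal or pool as a block did not (adjusted p = 0.2621, edgeR). Pltp (1.19 ± 0.37, adjusted p = 0.309, edgeR) and Abca1 (0.82 ± 0.28, adjusted p = 0.3563, edgeR) were the other 2 members with an unadjusted p under 0.05, which 1104 of all genes had. For Apoe, Lpl, Lrp1, Abcg1, Nr1h3 and Plin2 the difference lay between −0.59 (Lpl) and 0.44 (Abcg1).

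**Figure D5:**
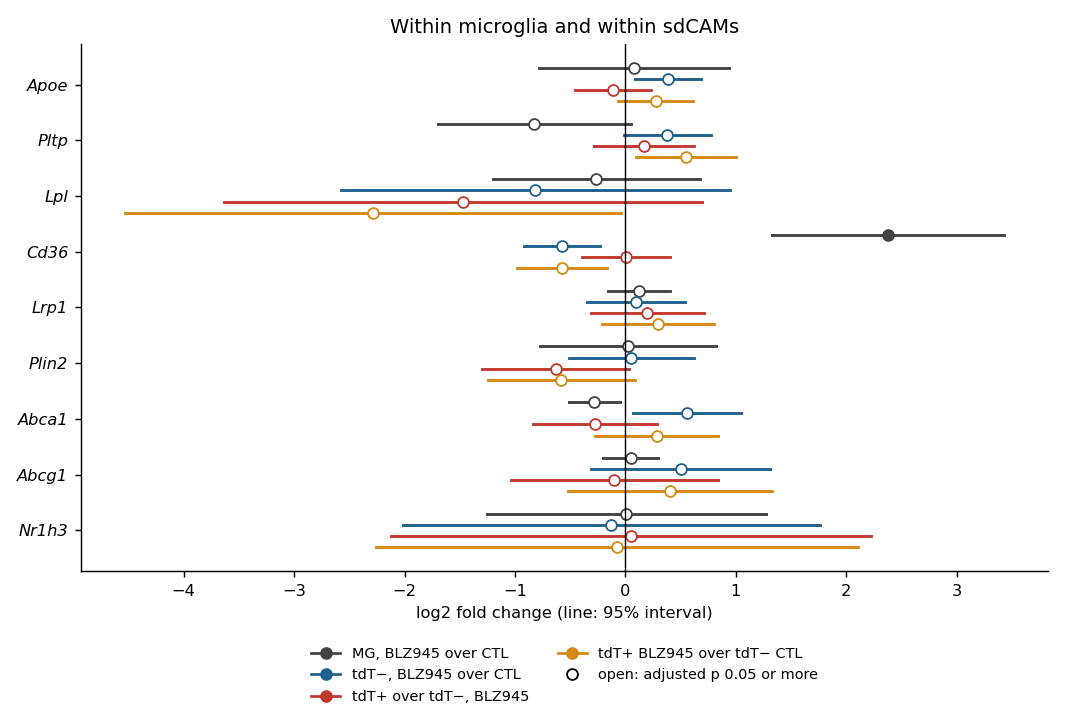
Log2 fold change (horizontal axis) of the 9 genes (vertical axis) in the 4 comparisons within MG or within sdCAMs; lines are 95% intervals, filled points passed the test at an adjusted p under 0.05 and open points did not. Cd36 in MG is the only filled point, and the intervals of Lpl and Nr1h3 in sdCAMs are the widest.

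The third question was whether sdCAMs marked through Ccr2 handled lipids differently from unmarked ones. Between tdT+ and tdT− cells of BLZ945 animals none of the 9 genes passed, against 0.206% of 13076 genes (edgeR). None of the 9 had an unadjusted p under 0.05 and none passed with DESeq2. For Apoe the log2 fold change was −0.11 ± 0.16 (SE, adjusted p = 0.9841, edgeR), with a 95% interval from −0.46 to 0.23, which is the narrowest of the 9. With 3 tdT+ libraries the intervals of Lpl (−3.63 to 0.69) and Nr1h3 (−2.12 to 2.22) were the widest of the 9, the first holding a large change downwards and the second large changes either way. The log2 fold changes of Cd36, Lrp1, Abca1, Abcg1, Pltp and Plin2 lay between −0.63 (Plin2) and 0.20 (Lrp1). Of the 75 other lipid genes none passed with edgeR or DESeq2, and 3 had an unadjusted p under 0.05, beside 903 of all genes.

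Between tdT+ BLZ945 and tdT− CTL cells, which differ in mark and treatment together, none of the 9 genes passed, against 0.283% of 13076 genes (edgeR). An unadjusted p under 0.05 was found for 3 of the 9 and for 973 of all genes, and DESeq2 called none of the 9. Lpl was 9.95 ± 8.998 CPM in tdT+ cells (SD, n = 3) and 48.0 ± 23.97 CPM in tdT− CTL (SD, n = 5), a fitted log2 fold change of −2.28 ± 1.06 (SE, adjusted p = 0.6565, edgeR), which was −2.96 without F2 and −1.70 without F3 of tdT+. The 2 groups did not overlap, as was the case for 8.24% of all genes. Cd36 was 469 ± 104 CPM (SD, n = 3) against 691 ± 91.4 CPM (SD, n = 5, −0.57 ± 0.19, adjusted p = 0.4705, edgeR). Pltp was 634 ± 133 CPM (SD, n = 3) against 431 ± 79.5 CPM (SD, n = 5, 0.55 ± 0.21, adjusted p = 0.5797, edgeR). Apoe was 0.27 ± 0.16 higher on the log2 scale (SE, adjusted p = 0.7928, edgeR). The log2 fold changes of Lrp1, Abca1, Abcg1, Nr1h3 and Plin2 lay between −0.58 (Plin2) and 0.40 (Abcg1). Of the 75 other lipid genes none passed with edgeR and 10 had an unadjusted p under 0.05. DESeq2 called 3 genes of the whole list (215 of all 17088 genes). With edgeR 1 was called with at least 10 counts in every library (48 of 8203 genes), 1 without a filter (61 of 21761) and 1 in a model of all 23 libraries (121 of 13790).

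Genes whose pattern over the 23 libraries was most like that of a member were sought among 5173 genes with an average log2 CPM of at least 5, by the root mean square difference between centred log2(CPM + 1) values. For Apoe, whose own SD over the libraries was 3.18, these were Aoah (difference 0.35) and Cp (0.47). For Pltp, with an SD of 3.44, they were Folr2 (0.45) and Mgst1 (0.46). Lpl was nearest to Mmp12 (1.35) and Gpr84 (1.39), which is a loose likeness beside its SD of 2.74, and Cd36 to Mdfic (0.68) and Sh3pxd2b (0.71) beside an SD of 2.08. Abcg1 was nearest to Rhoh (0.40) and Pald1 (0.44), Lrp1 to Ctss (0.25) and Picalm (0.26), and Plin2 to Lmna (0.38) and Msr1 (0.40), the gene of a macrophage scavenger receptor. Nr1h3 (Rap2b, 0.75, and Kif1b, 0.77) and Abca1 (Ddrgk1, 0.29, and Ssbp1, 0.30) had SDs of 1.19 and 0.36, not far above these differences. The 23 libraries span both populations, so the difference between MG and sdCAMs enters each of these values.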

How the data were processed

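RNA of sorted macrophages was sequenced in 23 libraries (SMART-Seq mRNA LP). The authors deposited raw read counts per gene symbol for the whole series. The submitters' processing notes name bcl2fastq 2.20, STAR 2.7.11a, featureCounts 2.0.6 and DESeq2 1.46.0. Which of the builds named was used for the counts, and how reads with several matches and strand were treated, is not given in the sources used here, so values of genes with close copies are uncertain.

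Groups were taken from the sample labels. Counts were tested with the quasi-likelihood test of edgeR 4.0.16 (R 4.3.3, limma 3.58.1) after filterByExpr and TMM scaling, with Benjamini-Hochberg adjustment over all genes tested. The threshold on the adjusted p was 0.05, and p-values set a difference against the spread between these libraries. The main fits had no term for animal or pool. MG were fitted alone, the sdCAM groups together, tdT− with MG in 20 libraries, and tdT+ with MG in all 23. DESeq2 1.42.0, other filters and scalings, sex, an animal or pool block and each library left out were alternatives. Leaving out 4 libraries high in monocyte or choroid plexus markers, and leaving out libraries for the named genes of the wider list, were added after the data were seen. MG and sdCAM libraries with the same label come from the same animal or pool by the labels, and their deviations from the group means correlated by 0.0826 in CTL and 0.0564 in BLZ945 animals on average (0.055 for tdT− with tdT+, 0.0888 for MG with tdT+). The 9 genes and all gene lists were chosen with earlier results of these data known. All 9 were named in every comparison, and of the wider list at most the 3 largest called rises and falls with an average log2 CPM of at least 3. One gene that this rule names is not reported here. Likeness between genes was taken on log2(CPM + 1). The fits were tested on simulated data. No 2 libraries of a group agreed within sampling noise.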

Additional observations from a re-analysis of the deposited data

Results flagged for a closer look

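Abca1 in the tdT− CTL library F1 stood apart from the other libraries of its group, at 70.1 CPM beside 136 to 177 CPM in the others. On the log2(CPM + 1) scale its gap to the nearest library took 0.7104 of the range of the group, just above the 95% critical value of Dixon, and on the CPM scale the share was below that value. Of the 9 genes in the 4 groups of 5 libraries, 36 sets of values were examined in this way, of which chance alone puts 1 in 20, or 1.8, past that value.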

How the results depend on the processing

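Fold changes of Apoe, and of other members where the main unadjusted p was under 0.05 (edgeR), were compared with those of the alternatives. Under alternatives that kept all libraries, 293 kept their direction and side of the threshold, 9 lost a call, 4 gained one and 1 reversed. That one was Apoe in MG after BLZ945 with sex as a covariate (−0.01674, not called). Members outside this rule were not counted, and some reversed too. One such member was Nr1h3 in MG with a block on replicate label (log2 fold change from 0.0071 to −0.26, not called). With 1 library left out, 369 of the compared values kept both, 28 lost a call, 3 gained one and 6 reversed. Those 6 were uncalled Apoe values (−0.32 to 0.63 in MG, −0.20 to 0.0003335 for tdT+ over tdT− BLZ945, −0.26 to 0.69 for the difference of effects). Members called in these fits numbered 0 to 1 of 9 in MG, 0 to 1 for the difference of effects, 7 to 8 for tdT− over MG in CTL, 7 to 9 in BLZ945 and 6 to 7 for tdT+, beside 2840 to 3030, 3480 to 4437 and 2697 to 3260 of all genes in the last 3. Without the 4 libraries, 0 members were called in MG. For the difference of effects, DESeq2 and the fit without a filter called 1 member each. The cause was not tested. Over all genes, calls in MG (46) moved to 89 with a block on replicate label, 268 with DESeq2, 193 without a filter, 12 in 1 model of all libraries and 23 without the 4 libraries. Calls for tdT− (0) moved to 62 with DESeq2 and 29 in 1 model. Those for tdT+ over tdT− BLZ945 (27) moved to 6 with the animal block, 174, 82 in 1 model and 11 without the 4 libraries. Those for tdT+ over tdT− CTL (37) moved to 215 with DESeq2, 61 without a filter, 121 in 1 model and 22 without the 4 libraries. For the difference of effects (5) they were 1 with the animal block, 102 with DESeq2, 2 with the filter of the study, 0 with at least 10 counts in every library, 9 without a filter, 1 with sex, 1 in 1 model and 46 without the 4 libraries. With 1 library left out, calls over all genes ran from 22 (without M1 or F2 of MG CTL) to 102 (without M2 of MG CTL) in MG, from 16 (without F2 of tdT+) to 27 for tdT+ over tdT− BLZ945, from 21 (without F2 of tdT+) to 44 for tdT+ over tdT− CTL, and from 0 (without M1 or F2 of MG CTL) to 36 (without F1 of tdT− BLZ945) for the difference of effects. Between treatments libraries share only a label (correlation 0.055 in MG, 0.0035 in tdT−), and that block changed no member call there. The animal or pool block changed no member call other than those given for Abca1 and Nr1h3. Depth limits Nr1h3 in MG, at 4 to 47 counts a library.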

Other observations

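Among the MG libraries F2 was the lowest and M2 the highest for Lpl, Plin2 and Cd36 in CTL and again in BLZ945, although the libraries of the treatments came from different animals. For Lpl the F2 and M2 libraries held 301 and 1707 CPM in CTL and 220.4 and 1203 CPM in BLZ945. For Plin2 they held 95.6 and 534 CPM in CTL and 111 and 336 CPM in BLZ945, and for Cd36 5.25 and 44.7 CPM in CTL and 31.2 and 202 CPM in BLZ945. Apoe did not follow this order, with M2 the lowest of MG CTL at 291 CPM. The pattern was chosen after the values were seen and was not tested.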
